A study of Mus musculus with 3 samples.

Results

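The 10 genes Sprr1a, Sprr3, Ivl, Cnfn, Sbsn, Krtdap, Ecm1, Tgm1, Tgm3 and Dapl1, all known from squamous differentiation and the cornified envelope, were followed in sorted cells of the mouse larynx. They are 10 of the 33696 features counted and were taken by symbol, from a list made with earlier results of these data known. Stratified squamous cells build a cornified envelope beneath the plasma membrane, in which precursor proteins are joined to each other by transglutaminases. The covering of the vocal fold is a stratified squamous epithelium that keeps its nuclei at the surface, and its cells switch on the suprabasal keratins Krt13 and Krt4 as they leave the basal layer. Ivl (involucrin), the small proline-rich proteins Sprr1a and Sprr3 and Cnfn (cornifelin) are envelope precursors, Sbsn (suprabasin), Krtdap (keratinocyte differentiation associated protein) and Ecm1 (extracellular matrix protein 1) are secreted, Tgm1 and Tgm3 are transglutaminases, and Dapl1 (death associated protein-like 1) is an epithelial differentiation gene that belongs to neither class.

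The cells came from Lrig1CreERT2/+; ROSALSL-tdTomato/+ mice, in which Cre is driven from the Lrig1 locus and tamoxifen starts the labelling. All cells shared this genotype, 2 tamoxifen injections on consecutive days, collection 1 day after recombination and sorting for tdTomato. Each of the 3 libraries was a pool of 10 larynges from 5 males and 5 females, so single animals cannot be told apart, and the reporter itself was not among the features counted. All mice were of a single condition, so every comparison sets groups of cells from the same libraries beside each other, either 2 classes or the Lrig1+ and Lrig1- cells inside a class.

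The libraries held 13222, 7201 and 24119 cells after the limits on quality, with 110244232 to 298152051 UMIs (unique molecular identifiers, which count captured RNA molecules) and a median of 10579.5 to 14151 UMIs per cell. Between 21 and 102 cell barcodes were shared by a pair of libraries. Levels are given as CPM, the UMIs of a gene per 1000000 UMIs of all cells summed in a class and library, and were not compared between genes. The upper limits on UMIs and genes removed 12.6%, 30.7% and 22.8% of the barcodes past the Krt13 gate in libraries 1, 2 and 3.

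The 10 genes lay on 4 chromosomes of GRCm39. Sprr3 (chr3:92363809-92366031), Sprr1a (chr3:92390424-92393208) and Ivl (chr3:92478209-92481042) stood side by side on the minus strand, in the epidermal differentiation complex, a cluster of envelope genes. Sprr3 and Sprr1a were 24392 bases apart with no protein-coding gene between them, and the 85000 bases between Sprr1a and Ivl held Sprr4 and Sprr5. Ecm1 (chr3:95640761-95646943, minus strand) was 3159718 bases from Ivl, with 95 protein-coding genes between. Sbsn (chr7:30450896-30455559) and Krtdap (chr7:30487321-30490522) shared the plus strand and were 31761 bases apart, with only the protein-coding gene Dmkn between them. Cnfn (chr7:25067040-25069156, minus strand), Tgm1 (chr14:55937466-55951383, minus strand), Tgm3 (chr2:129854257-129892319, plus strand) and Dapl1 (chr2:59314997-59335368, plus strand) had no other of the 10 nearby. Sprr1a and Sprr3 belong to a family of similar copies, so their counts are uncertain where a read could fit several. Ecm1 and Sbsn overlap another annotated transcript on their own strand, and Cnfn, Krtdap, Ecm1, Tgm1 and Tgm3 overlap one on the other strand.

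The 250 bases before the annotated start of the main transcript are shown for 4 genes that differed in how they followed Krt13, read 5′ to 3′ on the strand of the gene, from the GRCm39 genome. Capitals mark 3 motifs that were searched on both strands in the same window of 21757 promoters: TATAAA, the core of a TATA box, TGANTCA, the type bound by AP-1 factors, and GGGNGTGG, a type bound by KLF factors. A match is a description of the letters and not a measured site.
Sprr1a (chr3:92393209-92393458, minus strand): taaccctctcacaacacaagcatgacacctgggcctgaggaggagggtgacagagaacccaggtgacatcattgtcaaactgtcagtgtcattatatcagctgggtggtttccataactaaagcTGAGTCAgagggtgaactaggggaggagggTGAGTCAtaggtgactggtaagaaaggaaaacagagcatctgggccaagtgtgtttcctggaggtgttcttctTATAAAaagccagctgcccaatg
Ivl (chr3:92481043-92481292, minus strand): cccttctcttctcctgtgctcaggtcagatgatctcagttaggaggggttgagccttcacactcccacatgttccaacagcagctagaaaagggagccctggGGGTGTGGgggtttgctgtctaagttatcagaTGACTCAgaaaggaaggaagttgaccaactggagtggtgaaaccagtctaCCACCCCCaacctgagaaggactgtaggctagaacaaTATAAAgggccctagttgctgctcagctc
Krtdap (chr7:30487077-30487326, plus strand): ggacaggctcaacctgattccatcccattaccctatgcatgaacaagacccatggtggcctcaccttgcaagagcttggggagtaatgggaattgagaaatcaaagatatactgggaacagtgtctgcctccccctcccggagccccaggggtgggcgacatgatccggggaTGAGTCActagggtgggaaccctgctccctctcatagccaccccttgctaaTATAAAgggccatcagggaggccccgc
Dapl1 (chr2:59314747-59314996, plus strand): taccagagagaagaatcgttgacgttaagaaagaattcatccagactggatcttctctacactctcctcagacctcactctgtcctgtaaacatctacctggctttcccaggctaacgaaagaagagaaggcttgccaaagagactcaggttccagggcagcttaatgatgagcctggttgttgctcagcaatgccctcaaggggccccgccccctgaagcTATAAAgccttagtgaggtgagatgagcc

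TATAAA was present in 7 of the 10 windows and in 11.9% of all promoters, and in Dapl1 and Ivl it began 29 bases before the start. TGANTCA was present in 4 of 10, those of Sprr1a, Ivl, Krtdap and Sbsn, and in 6.18% of all promoters. Sprr1a held this motif in a pair, beginning 126 and 96 bases before the start, and Krtdap held it 78 bases before. GGGNGTGG was present in 3 of 10, those of Ivl, Ecm1 and Cnfn, and in 16.9% of all promoters. Dapl1 held TATAAA alone.

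Cells were put in classes by the UMIs of marker genes per 10000 UMIs of the cell, and no gate used any of the 10 genes. Krt13-high cells had over 30 Krt13 UMIs per 10000 and numbered 320, 113 and 580 in libraries 1, 2 and 3. Of the UMIs of all genes and cells, they held 6029657 of 157557864, 2435255 of 110244232 and 12648512 of 298152051. Squamous basal cells had at least 10 Krt5 and Krt14 UMIs per 10000, Krt13 below its gate and no Nkx2-1 UMI, and numbered 1132, 1104 and 4046. Nkx2-1 basal cells, which carry at least 2 UMIs of this airway transcription factor, numbered 600, 484 and 2773. Both basal classes were limited to cells of at least 10000 UMIs, and median depths were 18976, 23401 and 22825.5 UMIs in Krt13-high cells and 18498, 21237 and 18341.5 in squamous basal cells.

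The other markers followed the class names in part. Krt4 was at 2188, 2404 and 2759 CPM in Krt13-high cells against 528, 406 and 510 in squamous basal cells, and Ly6d, a surface marker of squamous cells, was at 546, 254 and 737 against 188, 126 and 172. Trp63, the master regulator of the basal state, was at 493, 321 and 258 CPM against 888, 737 and 880. The Krt13-high cells were not free of basal genes, since Krt5 stood at 2413, 2195 and 3247 CPM there and at 1641, 1422 and 2342 in squamous basal cells. Lor (loricrin), the main precursor of the epidermal envelope, was at 1.82, 0.821 and 1.26 CPM in Krt13-high cells. Nkx2-1 UMIs were found in 13.4%, 16.8% and 20.7% of Krt13-high cells.

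The precursor Sprr1a, whose protein cross-bridges the envelope, was at 143, 46.0 and 626 CPM in Krt13-high cells of libraries 1, 2 and 3. It was at 14, 8.76 and 25.6 CPM in squamous basal and at 5.11, 0.179 and 9.27 CPM in Nkx2-1 basal cells. The order of these 3 classes held in every library, although the spread between libraries within Krt13-high cells was wide. Of the Sprr1a UMIs of each library, 47.4%, 21.5% and 55.9% lay in Krt13-high cells. Muscle satellite cells, which should lack the gene, were at 0.396, 0.623 and 6.89 CPM, highest in library 3. Whether these UMIs came from free RNA was not tested. In library 2 the satellite level was above the Nkx2-1 basal level of 0.179 CPM. Secretory cells, with 3.76, 18.7 and 40.7 CPM, were above satellite cells in each library.

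Sprr3, of the same family, was all but undetected. It had 14 UMIs in 10 cells over the 3 libraries, 7 in library 1, 0 in library 2 and 7 in library 3. In Krt13-high cells it had 6, 0 and 1 UMIs, and the 0 in library 2 allows up to 1.23 CPM. It fell below the count filter of all 4 edgeR comparisons. Without that filter it was called higher in Krt13-high than in squamous basal cells (adjusted p = 0.0437), a call that rests on the 6, 0 and 1 UMIs above.

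Ivl, the scaffold on which other precursors are joined, was at 6.30, 13.1 and 7.99 CPM in Krt13-high cells. It was at 4.33, 3.71 and 5.11 CPM in squamous basal cells and at 0.511, 0.986 and 1.21 CPM in Nkx2-1 basal cells. The 3 classes did not overlap, and the gap between the basal classes was the wider on a log scale. In library 2, 1 cell held 43.8% of the Ivl UMIs of the Krt13-high cells. Satellite cells held 0, 0 and 1 Ivl UMIs.

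Cnfn was at 7.30, 0 and 28.8 CPM in Krt13-high cells, with no UMI among the 113 cells of library 2. Squamous basal cells held 0, 0 and 17 Cnfn UMIs. A single cell gave 59.1% of the Krt13-high UMIs in library 1 and 24.5% in library 3. Gland cells of library 1 reached 18.2 CPM, but 5 cells gave 85.0% of those UMIs, and gland cells of libraries 2 and 3 were at 1.25 and 0.869 CPM. In library 1, 7 cells of any class held at least 10 Cnfn UMIs, 5 of them gland and 2 Krt13-high cells. All 7 had a Krt13 UMI, with a median of 25.0 per 10000. The Cnfn level was thus decided by few cells in each library.

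Ecm1 was the most widely found of the secreted members in Krt13-high cells. It was at 298, 535 and 413 CPM there, and 65.6% (95% Wilson interval 60.3 to 70.6), 71.7% (62.8 to 79.2) and 78.3% (74.7 to 81.4) of the cells had a UMI. Squamous basal cells were at 85.7, 78.5 and 112 CPM and Nkx2-1 basal cells at 83.2, 61.6 and 86.9 CPM, ranges that overlap. Ecm1 was not limited to squamous cells: fibroblasts were at 369, 275 and 347 CPM, gland cells at 190, 342 and 134 CPM, and immune cells at 207, 190 and 51.1 CPM. Satellite cells were at 5.74, 2.70 and 6.89 CPM.

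Sbsn was at 49.8, 37.8 and 106 CPM in Krt13-high cells and between 7.65 and 12.2 CPM in every library of both basal classes. It also stood at 53.1, 32.7 and 16.7 CPM in fibroblasts and at 44.1, 23.1 and 28.9 CPM in satellite cells, while secretory and gland cells lay between 4.72 and 7.19 CPM. In library 1, the fibroblast level was thus above the Krt13-high level, and the satellite level was close to it. In library 2, the fibroblast level was close to the Krt13-high level, at 32.7 against 37.8 CPM. Neuroendocrine cells, 48 in library 1 and 26 in library 2, were at 23.7 and 34.5 CPM and had an Sbsn UMI in 31.2% and 57.7% of cells. Of the Sbsn UMIs of each library, 10.2%, 6.03% and 30.7% lay in Krt13-high cells.

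Krtdap, encoded next to Sbsn, was at 130, 12.3 and 162 CPM in Krt13-high cells and at 7.13, 11.6 and 46.6 CPM in squamous basal cells. Library 2 showed nearly the same level in both classes, and the ranges overlapped. Few cells carried the gene: 10.9%, 7.08% and 17.4% of Krt13-high cells had a UMI. The 5 richest cells gave 77.5%, 90.0% and 39.5% of the Krt13-high UMIs. Satellite cells were at 0.396, 0.208 and 4.16 CPM.

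Tgm1, the membrane-anchored transglutaminase, was at 76.5, 54.2 and 94.6 CPM in Krt13-high cells, 22.3, 15.2 and 21.4 CPM in squamous basal cells and 9.46, 9.50 and 13.1 CPM in Nkx2-1 basal cells. No library of a higher class overlapped a lower class. The share of Krt13-high cells with a UMI was 44.4%, 47.8% and 61.2%, and in no library did 1 cell hold over 7.58% of the UMIs. Satellite cells had a UMI in 0.407%, 0.670% and 1.13% of cells, at median depths of 6976, 8085 and 5729 UMIs.

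Tgm3, a cytosolic transglutaminase that is activated by cleavage, was at 49.8, 28.7 and 5.93 CPM in Krt13-high cells and at 0.542, 0.421 and 0.0756 CPM in squamous basal cells. The share of Krt13-high cells with a UMI was 12.8% (9.59 to 16.9) in library 1, 3.54% (1.39 to 8.75) in library 2 and 1.03% (0.475 to 2.24) in library 3. Its richest cell gave 11%, 70.0% and 78.7% of the Krt13-high UMIs, and without that cell the levels were 44.5, 8.77 and 1.27 CPM. Library 1 thus had the most Tgm3 cells, whereas library 3 had the highest Sprr1a and Tgm1 levels.

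Dapl1 ran the other way. It was at 183, 232 and 173 CPM in Krt13-high, 293, 302 and 273 CPM in squamous basal and 376, 397 and 350.1 CPM in Nkx2-1 basal cells, and the 3 classes did not overlap. Secretory cells were at 275, 255 and 285 CPM, while gland cells, ciliated cells and fibroblasts lay between 9.69 and 19.1 CPM. Of the Dapl1 UMIs of all cells, 2.91% lay in Krt13-high cells, to be read beside their part of the UMIs of all genes given above.

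**Figure D1:**
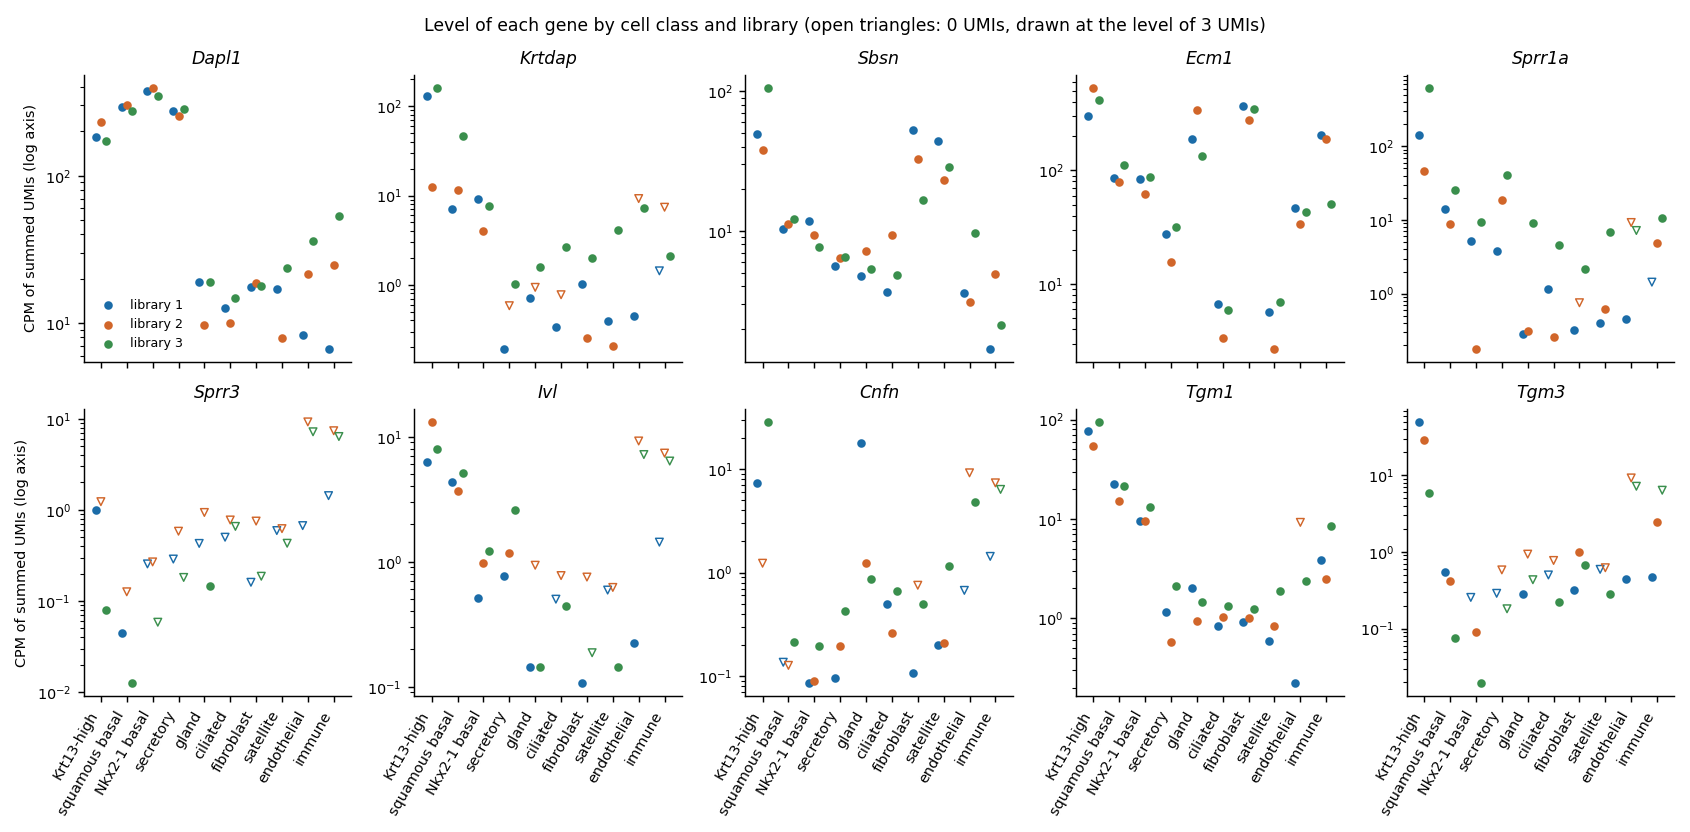
Each panel shows 1 gene, with its level in CPM on a log axis for 10 cell classes and a point per library; open triangles stand for 0 UMIs and are drawn at the level of 3 UMIs. Tgm1 and Ivl step down from Krt13-high to squamous basal to Nkx2-1 basal cells in every library, Dapl1 steps up, and Ecm1 and Sbsn are also high in fibroblasts.

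The question put to the class sums was which of these genes differed between Krt13-high and squamous basal cells. Sprr1a, Sbsn, Ecm1, Ivl, Tgm1 and Tgm3 were higher in Krt13-high cells by edgeR's quasi-likelihood test on the 3 sums of each class, p-values being adjusted by Benjamini and Hochberg over the 14329 genes in the test. That is 6 of the 8 members that passed the count filter, all of them higher, where 21.4% of all genes were called, 10.9% higher and 10.4% lower. Tgm3 passed the filter only through its Krt13-high sums and could not have been called lower, so its call adds nothing to this count, which is 5 of 7 without it. Cnfn and Sprr3 were below the filter. Cnfn was called higher without a filter and without library 2, against squamous basal sums that hold 0 UMIs in 2 of 3 libraries, so no fold is given. A class sum cannot tell fewer expressing cells from less RNA per cell, so the shares of cells are given as well.

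Tgm3 had a log2 fold change of 6.87 (SE 0.97, adjusted p = 0.00321), a value fixed in direction by the filter and resting on squamous basal sums of 12, 10 and 6 UMIs. Sprr1a was higher by 4.26 (SE 0.89, adjusted p = 0.0136), and without library 1 the value was 4.47 with an adjusted p of 0.0867. Sbsn was higher by 2.73 (SE 0.35, adjusted p = 0.00204), Ecm1 by 2.33 (SE 0.22, adjusted p = 0.000602) and Tgm1 by 2.12 (SE 0.22, adjusted p = 0.000893). These 3 stayed past the threshold when any library was left out. So did Tgm3, but with its direction fixed by the filter this adds nothing.

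Ivl was higher by 1.14 on the log2 scale (SE 0.27, adjusted p = 0.022), the smallest of the called changes. Its call was lost when any library was left out, with adjusted p-values of 0.0756, 0.0931 and 0.0679 without libraries 1, 2 and 3. It was also lost with gates at double (1.03, adjusted p = 0.0689) and when cells were thinned to 5000 UMIs, where the log2 fold change was 0.75 (adjusted p = 0.24). Thinning drops cells of fewer UMIs, which left 271, 92 and 526 Krt13-high cells and all squamous basal cells. At that depth 2.29% of Krt13-high and 1.73% of squamous basal cells had an Ivl UMI, on average over the libraries.

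Krtdap had a log2 fold change of 2.43 (SE 0.86, adjusted p = 0.0794) and Dapl1 one of -0.41 (SE 0.13, adjusted p = 0.0535), neither past the threshold. Each library gives a sum to both classes. With library as a block, 8 of 8 members passed, 7 higher and 1 lower, or 6 higher and 1 lower of 7 without Tgm3, where 37.9% of all genes were called, 20.4% higher and 17.6% lower. Krtdap then had a log2 fold change of 2.47 (adjusted p = 0.00548) and Dapl1 one of -0.42 (adjusted p = 0.00237). Both were also called by some fits without the block. Krtdap passed in thinned cells (2.54, adjusted p = 0.00992), with gates at double, without a count filter and against basal cells with at most 1 Krt13 UMI per 10000, where it was at 3.84 (adjusted p = 0.00803). Dapl1 passed with DESeq2 (-0.42, adjusted p = 0.0187), with gates at double, without a count filter and against the same low-Krt13 basal cells. When a library was left out neither passed, and Krtdap ranged from 1.84 without library 1 to 3.18 without library 3.

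Thinning to 5000 UMIs, with shallower cells dropped, kept the difference in shares for most members. Tgm1 was then found in 29.3% ± 3.5 (SD, n = 3 libraries) of Krt13-high cells and in 7.56% ± 1.75 of squamous basal cells. The shares were 53.8% ± 6.7 against 26.7% ± 4.1 for Ecm1, and 17.3% ± 10.9 against 3.78% ± 1.23 for Sprr1a. For Dapl1 they were 54.7% ± 4.4 against 70.5% ± 1.2.

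The second comparison set squamous basal cells against Nkx2-1 basal cells. Ivl and Tgm1 were higher in squamous basal cells, 2 of the 7 members tested, where 11.1% of 15069 genes were called and 4.29% were called higher. Ivl had a log2 fold change of 2.22 (SE 0.29, adjusted p = 0.00331), and it stayed past the threshold without any library. Tgm1 had one of 0.88 (SE 0.18, adjusted p = 0.0193), which became 0.72 (adjusted p = 0.231) without library 1 and 0.69 (adjusted p = 0.141) in cells thinned to 5000 UMIs. It was also lost with gates at double (0.59, adjusted p = 0.181) and without the upper limits (0.67, adjusted p = 0.106).

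Sprr1a, at 1.64, and Krtdap, at 1.68, were not past the threshold in this comparison (adjusted p = 0.223 and 0.175). Krtdap was at 0.52 without library 3. Sbsn and Ecm1 had log2 fold changes of 0.28 and 0.27 (adjusted p = 0.418 and 0.338) and Dapl1 one of -0.35 (adjusted p = 0.0584). Dapl1 passed with DESeq2 (-0.33, adjusted p = 0.0208) and without library 3 (-0.35, adjusted p = 0.0428). With library as a block, 6 of 7 members passed where 30.3% of all genes were called, 14.8% higher and 15.5% lower. The members added were Dapl1 (-0.35, adjusted p = 0.000301), Krtdap (1.68, adjusted p = 0.0239), Ecm1 (0.28, adjusted p = 0.0141) and Sprr1a (1.77, adjusted p = 0.00226). Sprr1a passed the count filter here only through its squamous basal sums, which favours a higher value; without it, 4 of 6 members were higher and 1 was lower.

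**Figure D2:**
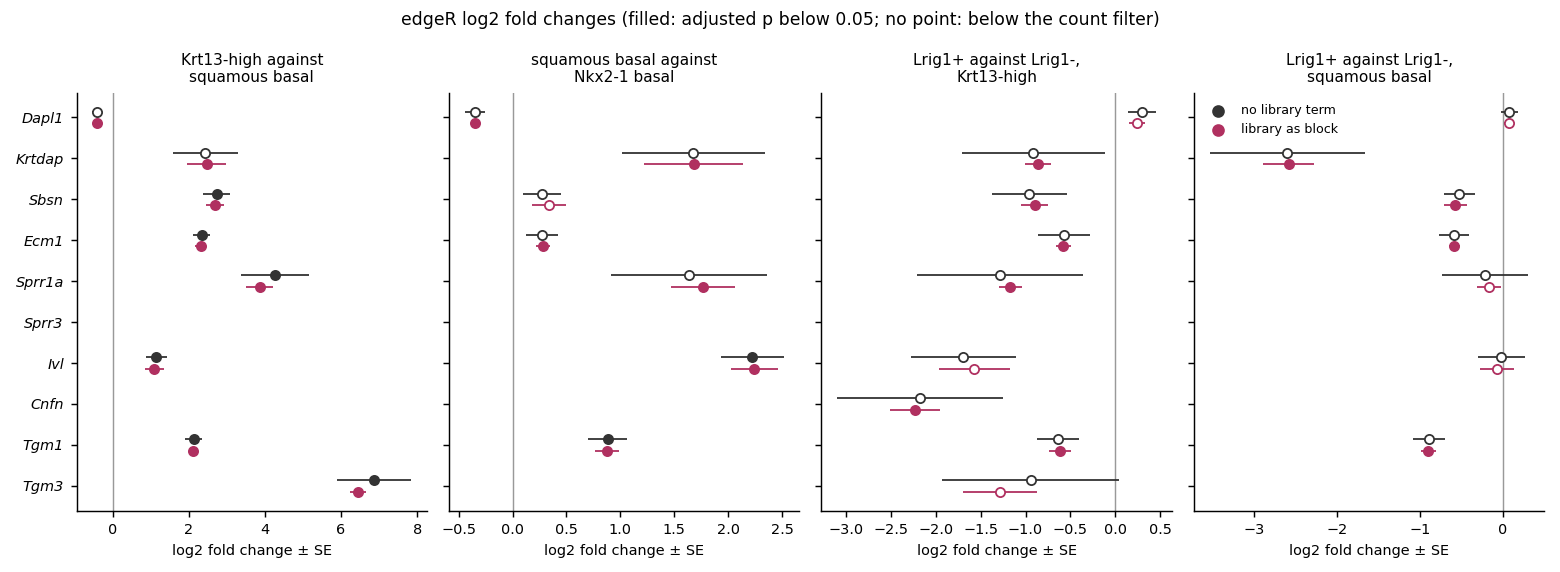
Points are log2 fold changes with SE bars for each gene in 4 comparisons, black without and red with library as a block; filled points have an adjusted p below 0.05. In the comparison of Krt13-high with squamous basal cells, Dapl1 alone lies left of 0, and in both comparisons by Lrig1 the members that pass lie left of 0 and only with the block.

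To see how each gene rose with Krt13, all epithelial cells were binned by Krt13 UMIs per 10000, from none to the bin above 100 to 300, which held 54 cells in library 1 and 119 in library 3. In library 2 the last bin with enough cells was above 30 to 100, with 100 cells. The bins are a description without a test. They differ in depth: the bin above 3 to 10 held shallow cells in libraries 1 and 3, with medians of 6212 and 5876 UMIs, as did the bin above 10 to 30 in library 3, with a median of 5935 UMIs. The bins also differ in their mix of cell types, since airway epithelial cells were included. From the first to the last bin, Nkx2-1 went from 83.5 to 4.55, 61.3 to 23.1 and 104 to 12.3 CPM in libraries 1, 2 and 3. The part of this mix in the curves was not tested.

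Tgm1 was higher at each step between neighbouring bins in all 3 libraries, 6 of 6, 5 of 5 and 6 of 6 steps. Its level went from 5.46 to 155 CPM in library 1, from 5.89 to 39.4 CPM in library 2 and from 7.93 to 146 CPM in library 3. Ecm1 went from 37.8 to 528, 36.7 to 488 and 51.3 to 840 CPM, with a single step down in library 1, from 253 to 245 CPM. In cells thinned to 5000 UMIs, which fill 1 bin fewer, Tgm1 was higher at 5 of 5, 3 of 4 and 5 of 5 steps and Ecm1 at 4 of 5, 4 of 4 and 5 of 5. The steepest part of the Ecm1 curve in libraries 1 and 3 was the last step.

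Sprr1a was highest in the last bin of each library. In library 3 it was at 14.7 CPM in cells without Krt13, 67.3 CPM in the bin above 3 to 10, 62.3 CPM in the bin above 10 to 30, 243 CPM in the next and 1602 CPM in the last. In library 1 the values of the same bins were 5.64, 34.2, 26.9, 97.7 and 221 CPM. In library 2, Sprr1a was at 3.79, 13.2, 7.69 and 35.6 CPM up to its last bin. The level in the bin above 10 to 30 was thus below that of the bin before it in all 3 libraries. This depended on the cells used. In cells without an Nkx2-1 UMI, Sprr1a was higher at 6 of 6 steps in libraries 1 and 3 and at 3 of 5 steps in library 2. Sbsn went from 7.30 to 294 CPM in library 3, from 6.87 to 99.99 CPM in library 1 and from 10.2 to 31.7 CPM in library 2.

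Krtdap reached 203 and 362 CPM in the last bins of libraries 1 and 3, but in library 2 it was highest, at 49.8 CPM, in the bin above 10 to 30 and at 13 CPM in the last. Ivl was already at 5.66 CPM in the bin above 1 to 3 in library 1 and stayed between 5.45 and 6.70 CPM in all higher bins. In library 3 it lay between 4.10 and 5.09 CPM from the bin above 1 to 3 to the bin above 30 to 100, and then was at 18.8 CPM. In library 2 it reached 12 CPM in the last bin.

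Tgm3 was near 0 in the lower bins of library 3 and at 26.1 CPM in its last bin, where 1 cell held 59 of the 68 UMIs. In library 1 it was at 20.9 CPM in the bin above 30 to 100 and at 157 CPM in the last. Cells of library 1 without any Krt13 were at 1.95 CPM, on 152 UMIs, of which 1 cell held 145. Cnfn was at 178 CPM in the last bin of library 3, and at 49.2 CPM when cells past a secretory, gland, ciliated or neuroendocrine gate were left out. In library 2 the same step took the last bin from 41.3 to 0 CPM.

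Dapl1 went from 306 CPM without Krt13 to 128 CPM in the last bin of library 3, lower at every step, and from 272 to 168 CPM in library 1. In library 2 it was between 268 and 293 CPM up to the bin above 10 to 30 and at 234 CPM in the last. The bin in which a member first reached at least 50% of its top level was the bin without Krt13 for Dapl1 in all 3 libraries. For Krtdap, Sbsn, Ecm1, Sprr1a and Tgm3 it was the bin above 100 to 300 in libraries 1 and 3, and library 2 had no such bin. In cells thinned to 5000 UMIs it was the bin above 10 to 30 for Ecm1 in library 1 and unchanged for these 5 genes otherwise in libraries 1 and 3. For Ivl, Cnfn and Tgm1 it differed between libraries 1 and 3.

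**Figure D3:**
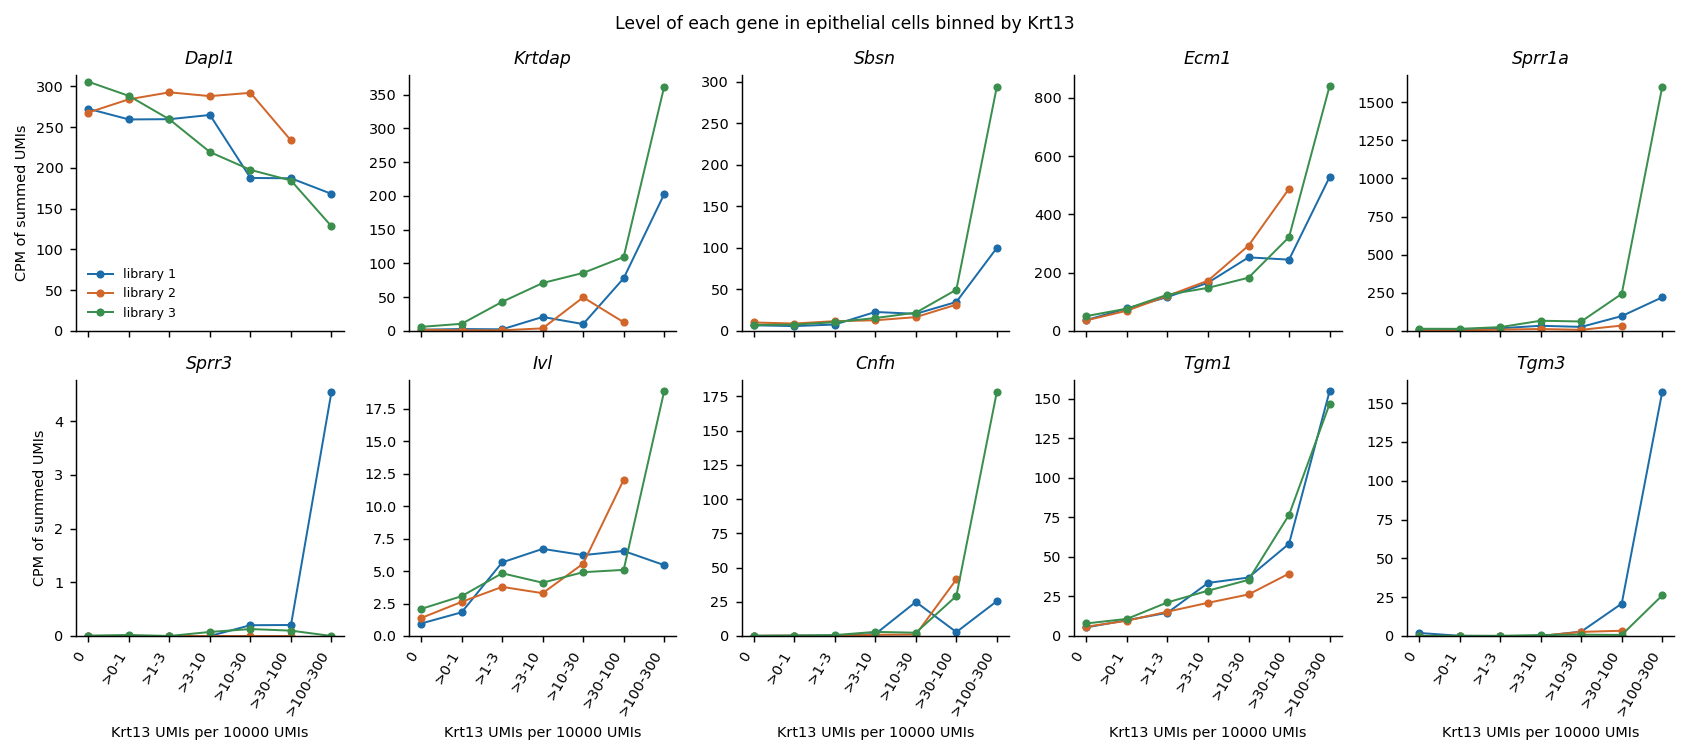
Each panel shows the level of 1 gene in CPM, on a linear axis from 0, against bins of Krt13 UMIs per 10000 in epithelial cells, with a line per library. Tgm1 is higher at each step in all 3 libraries, Sprr1a and Sbsn are highest in the last bins, and Dapl1 ends below its start in each library.

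Members with few carriers were looked at in the cells that held at least 10 UMIs of the gene. For Krtdap these numbered 20, 13 and 119 cells and held 78.7%, 81.5% and 72.8% of its UMIs. Only 55.0%, 7.69% and 24.4% of them were past the Krt13 gate, and 4, 10 and 66 of them were squamous basal cells. Their sums held Krt14, a basal keratin, at 4208, 2862 and 7020 CPM. They held Krt6a, the keratin of activated and wounded epithelium, at 2275, 703 and 2850 CPM. Krt1 and Krt10, the suprabasal keratins of skin, were at 2.27 to 8.97 CPM and 20.9 to 38.7 CPM. Krt13 was at 7957, 1534 and 3410 CPM in these sums, against 339, 235 and 239 CPM in squamous basal cells. Krt6a was also at 1271, 724 and 2159 CPM in Krt13-high cells, against 209, 111 and 248 CPM in squamous basal cells. For Sprr1a, 42.9%, 38.5% and 51.0% of the 42, 13 and 210 rich cells were past the Krt13 gate, and for Tgm3 it was 90.9%, 66.7% and 100% of 11, 3 and 1 cells.

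Squamous basal cells were then binned by Krt6a alone. Krtdap went from 3.46 CPM without Krt6a to 292 CPM in the bin above 10 to 30 and 1567 CPM in the 33 cells above 30 to 100 in library 3. It went from 0.975 to 49.4 CPM in library 1. In library 2 it was at 2.35 CPM without Krt6a. It was at 89.3 CPM in the 79 cells above 3 to 10, of which 8.86% had a Krtdap UMI. In the 26 cells above 10 to 30 it was at 20.03 CPM, on 13 UMIs. A single squamous basal cell of library 2 held 87 Krtdap UMIs. The share of cells with a Krtdap UMI went from 1.53% to 25.9% in library 1, 1.19% to 11.5% in library 2 and 4.46% to 87.9% in library 3, from the first to the last bin. The last bin was above 10 to 30 in libraries 1 and 2 and above 30 to 100 in library 3. In the bin above 10 to 30 of library 3 the share was 38.1%.

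Tgm1 went from 11.5 to 79.6, 10.2 to 44.7 and 10.7 to 159 CPM along Krt6a, and Ecm1 from 57.6 to 156, 51.1 to 307 and 60.3 to 897 CPM. Dapl1 went from 313 to 199, 301 to 279 and 293 to 106 CPM. Sprr1a went from 8.92 to 43.9, 8.77 to 12.3 and 18.2 to 161 CPM. The last values of library 3 came from the bin above 30 to 100, which only that library had, so they do not compare with those of the other libraries. In the bin above 10 to 30, the last of the other libraries, library 3 had Tgm1 at 58.4, Ecm1 at 278, Dapl1 at 201 and Sprr1a at 64.6 CPM. The Krt13 level moved along as well, from 218 to 800, 104 to 803 and 75.7 to 828 CPM, although all these cells were below the Krt13 gate, and its part in these differences was not tested.

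**Figure D4:**
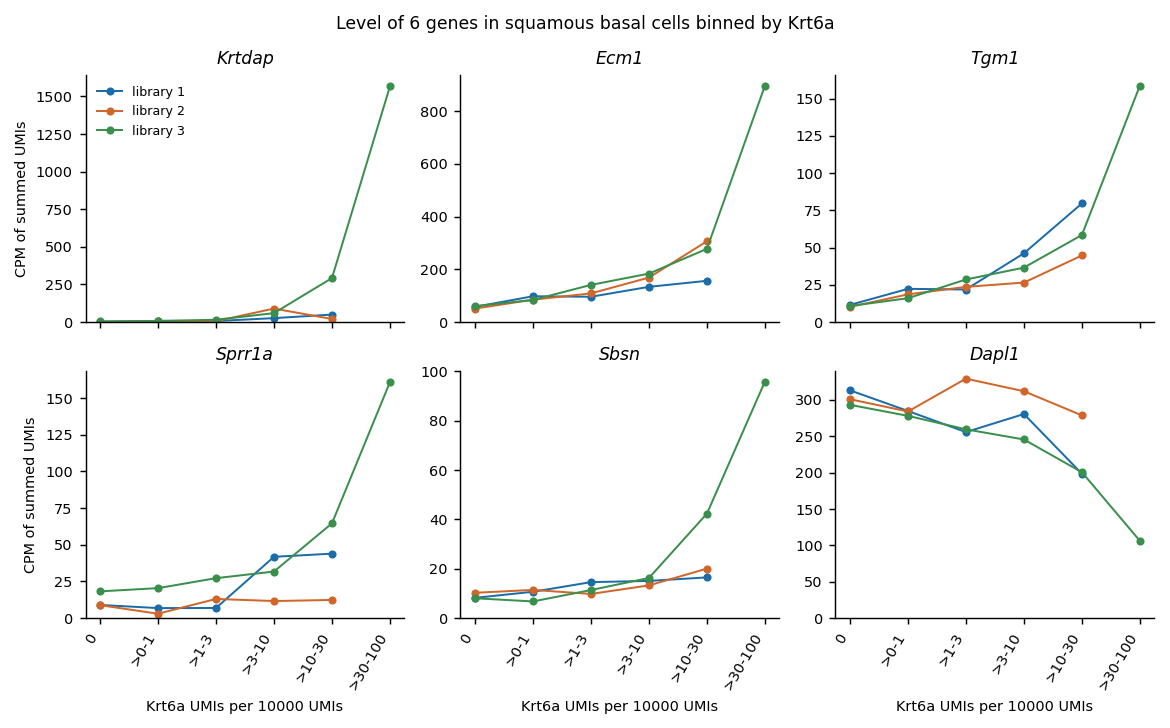
Panels show the level of 6 genes in CPM, on a linear axis from 0, against bins of Krt6a UMIs per 10000 in squamous basal cells, with a line per library. Only library 3 has the bin above 30 to 100, where Krtdap is at 1567 CPM. In the bin above 10 to 30 Krtdap is at 49.4, 20.03 and 292 CPM in libraries 1, 2 and 3. Tgm1 and Ecm1 end above their start in each library and Dapl1 ends below it.

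Single cells were asked how many of the 10 genes they held, after thinning to 5000 UMIs. Krt13-high cells held 1.78, 1.66 and 2.09 members on average in libraries 1, 2 and 3, against 1.14, 1.12 and 1.27 in squamous basal cells. At least 3 members were found in 24.0%, 21.7% and 34.2% of Krt13-high cells and in 4.86%, 4.44% and 7.22% of squamous basal cells. The most in any cell was 7, 5 and 7 members against 4, 4 and 5.

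Members were unevenly shared among Krt13-high cells. In library 3, 63.1% of the cells with an Sbsn UMI also had Sprr1a, against 20% of those without Sbsn, and in library 1 these shares were 25.5% and 12.9%. Krtdap was found in 21.3% and 23.4% of cells with Sbsn and in 3.12% and 6.51% of cells without it, in libraries 1 and 3. Dapl1 went the other way with Sprr1a: it was found in 34.1% and 43.1% of cells with Sprr1a and in 55.7% and 55.5% of cells without. Ecm1 and Sbsn differed between the libraries, since Ecm1 was found in 36.2% of Sbsn cells and 48.2% of others in library 1 but in 73.9% and 52.0% in library 3. These shares are a description over cells that share their library.

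The study's own contrast, cells with at least 1 UMI of Lrig1, a brake on ErbB receptor signalling, against cells with none, was made inside each class. In Krt13-high cells, 127, 67 and 301 cells were Lrig1+ and 193, 46 and 279 were Lrig1-. The edgeR test called 0% of 10991 genes and none of the 9 members tested, with 301 genes at an unadjusted p under 0.05, and DESeq2 called 1 gene (0.00505% of 19815), which was no member. With library as a block, 6 of 9 members passed and all were lower in Lrig1+ cells, or 5 of 7 without Krtdap and Tgm3, which passed the filter through 1 group only, where 1.17% of all genes were called, 0.6% in the lower direction.

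Ecm1 was at 264, 484 and 332 CPM in Lrig1+ cells and at 332, 686 and 539 CPM in Lrig1- cells, lower in 3 of 3 libraries, with a log2 fold change of -0.58 (adjusted p = 0.0063 with the block). Sprr1a was at 110.1, 30.8 and 396 CPM against 176, 90.3 and 982 CPM, with a log2 fold change of -1.17 (adjusted p = 0.00109). Tgm1 was at 72.6, 45.2 and 74.6 CPM against 80.3, 80.7 and 126 CPM, with one of -0.61 (adjusted p = 0.031). Sbsn (-0.90, adjusted p = 0.0122) was lower in 3 of 3 libraries, at 45.8, 27.5 and 74.8 against 53.8, 67.7 and 155 CPM. Krtdap (-0.86, adjusted p = 0.0129) was at 15.4 CPM in Lrig1+ cells and 3.23 CPM in Lrig1- cells of library 2, on 28 and 2 UMIs, and lower in the other libraries. Its value changed sign with the block and no upper limits and was then not past the threshold. Cnfn (-2.23, adjusted p = 0.00279) rests on libraries 1 and 3, as library 2 had no UMI in either sum.

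Depth and the Krt13 level moved with this split. Lrig1+ cells had median depths of 24880, 28960 and 26018 UMIs against 13030, 8281 and 18921 in Lrig1- cells, and Krt13 stood at 6823, 6605 and 7151 CPM against 7444, 7046 and 9221 CPM. In cells thinned to 5000 UMIs, with the block, 3 of 7 members passed all lower, where 0.945% of genes were called and 0.521% were lower: Ecm1 (-0.56), Sprr1a (-1.01) and Tgm3 (-1.71). The fit of all cells admitted Tgm3 only through its Lrig1- sums, which favours a lower value, so its call is given no weight here. Cells kept their Lrig1 group from before thinning, and 148, 26 and 226 Lrig1- cells remained. Median depths before thinning were 25039, 29145 and 26026 against 18393.5, 22660 and 21447 UMIs, so the split still went with depth. In Krt13-high cells below double the gate, with the block, 2 of 8 passed where 1.03% were called and 0.484% were lower: Ecm1 (-0.73) and Tgm1 (-0.71). Without the upper limits, with the block, 4 of 9 passed where 1.36% were called and 0.682% were lower: Ecm1, Ivl, Tgm1 and Tgm3, the last with the limit given above. Ecm1 was the member called in each of these 4 fits with the block.

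In squamous basal cells the same contrast called 0% of 14308 genes without the block, with 916 genes at an unadjusted p under 0.05. DESeq2 called 98 genes (0.41% of 23886), among them Tgm1 with a log2 fold change of -0.90 (adjusted p = 0.00859). With library as a block, 4 of 7 members passed, all lower in Lrig1+ cells, where 10.7% of all genes were called and 5.92% were called lower. Tgm1 was at 17.1, 13.5 and 17.2 CPM in Lrig1+ and 33.5, 20.1 and 33.4 CPM in Lrig1- cells (log2 fold change -0.90, adjusted p = 7.48e-06 with the block). Krtdap was at 1.79, 10.8 and 15.2 CPM against 18.6, 13.8 and 136 CPM (-2.58, adjusted p = 5.14e-05). Ecm1 (-0.59, adjusted p = 2.12e-05) was lower in 3 of 3 libraries, at 77.5, 72.1 and 94.6 against 103, 97.6 and 160 CPM. Sbsn (-0.58, adjusted p = 0.0125) was at 11.4 CPM in Lrig1+ and 10.8 CPM in Lrig1- cells of library 2 and lower in the others. Dapl1, Sprr1a and Ivl had log2 fold changes of 0.07, -0.17 and -0.07, not past the threshold.

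Here too Krt13 was lower in Lrig1+ cells, at 249, 231 and 210 CPM against 532, 245 and 320 CPM. In basal cells with at most 1 Krt13 UMI per 10000, with the block, Krtdap (-2.89), Ecm1 (-0.55) and Tgm1 (-0.70) still passed, where 2.91% of genes were called and 1.6% were lower. In cells thinned to 5000 UMIs, with the block and the Lrig1 group again set before thinning, the same 3 genes passed where 6.05% were called and 3.39% were lower. Without the upper limits, with the block, 4 of 7 passed where 9.68% were called and 5.32% were lower. The effects in Krt13-high and squamous basal cells were not tested against each other.

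The 5 lists of related genes were counted in the comparison of Krt13-high with squamous basal cells, in which 10.9% of all genes were higher, 10.4% were lower and the median log2 fold change was -0.01. Of 90 further envelope precursors and partners, 37 were tested, 29 were higher and none was lower, with a median of 1.40. Of the 37, 5 passed the count filter only through their Krt13-high sums, Krt6b among them, which favours a higher value. Of the other 32, 25 were higher, with a median of 1.32. Over all genes but those that passed through 1 class only, 11.5% were higher and 9.37% lower. Krt6b (6.41, adjusted p = 0.00106) and Ly6g6c (6.18, adjusted p = 0.000326) had the largest values, Ly6g6c at 33.5, 45.2 and 103 CPM against 0.632, 1.09 and 1.06 CPM. Tchh (trichohyalin, a hair follicle protein) and Lor had the smallest, -0.26 (adjusted p = 0.475) and -0.10 (adjusted p = 0.878). Dmkn, named for its place between Sbsn and Krtdap, was higher by 3.15 (adjusted p = 0.00577). Evpl and Ppl, the plakins that anchor the envelope, were named after their values were seen and were higher by 1.64 (adjusted p = 0.00218) and 1.31 (adjusted p = 0.000542).

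Of 28 crosslinking and lipid barrier enzymes, 17 were tested, 10 were higher and 2 lower, with a median of 0.70. Of these, 2 passed the filter only through Krt13-high sums, Tgm5 and Abca12, and 1 only through squamous basal sums, and of the other 14, 8 were higher and 2 lower. Tgm5, a further transglutaminase of the envelope, had a log2 fold change of 3.19 (adjusted p = 0.00358) and Cyp4f39, an omega-hydroxylase of very long fatty acids, one of 3.11 (adjusted p = 0.000542). Tgm2, the ubiquitous transglutaminase, was lower, at 102, 127 and 81.2 CPM against 308, 329 and 296 CPM (-1.44, adjusted p = 0.00106). Elovl4, which elongates very long fatty acids, was lower as well (-1.50, adjusted p = 0.0172). The transglutaminases thus moved in both directions.

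Of 14 S100 genes of the epidermal differentiation complex, 11 were tested and 7 were higher, none lower, with a median of 1.08. S100a2 passed the filter only through its Krt13-high sums, and of the other 10, 6 were higher. S100a3 had the largest value, 2.39 (adjusted p = 0.00061), and S100a2 followed with 1.64 (adjusted p = 0.0399). S100a13 and S100a1 had the smallest, 0.24 and 0.40 (adjusted p = 0.311 and 0.123), and S100a1 passed with library as a block (adjusted p = 0.0301). Of 28 proteases and inhibitors tested from a list of 41, 17 were higher and 1 lower, with a median of 0.76. Without 3 that passed the filter only through Krt13-high sums, Prss27 among them, 15 of 25 were higher and 1 lower. Prss27 and Serpinb2 were higher by 5.04 (adjusted p = 0.00155) and 4.39 (adjusted p = 0.00842). Ctsl, a lysosomal protease, was lower (-0.90, adjusted p = 0.0157), and Tmprss11a had a value of -0.02 (adjusted p = 0.956).

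The list of factors of squamous differentiation held 41 genes, transcription factors and the receptors Notch1 and Notch3. All 41 were tested, 17 were higher and 4 lower, with a median of 0.26, or 16 higher and 4 lower of 40 without Maf, which passed the filter only through its Krt13-high sums. Notch1 (0.67, adjusted p = 0.021) and Notch3 (2.09, adjusted p = 0.000178) were among those higher. Both are named as exceptions, since neither had one of the 2 largest or 2 smallest values. Hes1 (0.53, adjusted p = 0.0107) and Hey1 (-0.85, adjusted p = 0.0333), exceptions as well, were called higher and lower. Grhl3 and Zfp750, factors of terminal differentiation, were higher: Zfp750 was at 101.5, 101.0 and 119 CPM in Krt13-high and at 11.5, 16.1 and 14.1 CPM in squamous basal cells (3.11, adjusted p = 7.27e-05), and Grhl3 had a log2 fold change of 3.72 (adjusted p = 0.00189). Gata3 was lower, at 4.31, 5.75 and 5.22 against 25.5, 25.5 and 30.6 CPM (-2.27, adjusted p = 0.00021). Trp73, of the p53 family, was lower too (-2.43, adjusted p = 0.0207). With library as a block, and without genes that passed the filter through 1 class only, 21.8% of all genes were higher and 16.5% lower. Higher were then 28 of 32 precursors and partners, 9 of 14 enzymes, 9 of 10 S100 genes, 17 of 25 proteases and inhibitors and 20 of 40 factors. Lower were 3 enzymes, 1 of the proteases and inhibitors and 5 factors.

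Between squamous basal and Nkx2-1 basal cells, the lists are counted without the genes that passed the filter through 1 class only, beside 4.29% of all genes higher and 6.78% lower. Of 33 precursors and partners, 7 were higher and none lower, with a median of 0.44. Of 16 enzymes, none was higher and 3 were lower. For the S100 genes 1 of 9 was higher and 2 were lower, for the factors 9 of 38 were higher and 2 lower, and for the proteases and inhibitors 7 of 23 were higher and 1 lower. With library as a block, where 14.8% of all genes counted in this way were higher and 14.9% lower, 21 of the 33 precursors and partners were higher and 2 lower. The block gave 2 higher and 3 lower of the enzymes, 2 and 3 of the S100 genes, 17 and 5 of the factors, and 12 and 3 of the proteases and inhibitors.

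The genes whose level ran most like the members' mean over the Krt13 bins were Sfn, Lypd3, 6430548M08Rik, Nrarp, Gltp, Emp1, Tmem79, Dsp, Lad1 and Pkp1, with Pearson's r from 0.978 down to 0.968 over 20 points of library and bin, among 9961 genes. The points share libraries and the binning by Krt13, so r is a description. Sfn, an epithelial 14-3-3 protein, was also the gene most like Tgm1 (r = 0.992). Gsto1 was most like Ecm1 (0.981), Emp2 most like Sprr1a (0.973), Gdpd5 most like Dapl1 (0.968), Psapl1 most like Sbsn (0.967) and Prelid3b most like Krtdap (0.955). For Ivl, Cnfn, Tgm3 and Sprr3 the highest r was 0.929 with Tmem45a, 0.929 with Sdf2, 0.925 with Cyp3a13 and 0.855 with Fyttd1.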

How the data were processed

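Larynges were dissociated, tdTomato+ cells were sorted and libraries were made with 10x Genomics 3′ chemistry. The authors aligned the reads with Cell Ranger 8.0.1 to mm39 (GRCm39), per the submitters' processing notes, and deposited UMI counts per gene and barcode, which are whole numbers without normalization. Barcodes were then limited to 500 to 8000 genes, 1000 to 40000 UMIs and a mitochondrial share of 8% or less, and simulated-doublet scores removed 0.4% per 1000 barcodes, which left 44542 cells.

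Classes were gates on marker UMIs per 10000, read off the distribution of marker sums, and classes of under 20 cells in a library were left out. Counts were summed per library and class and tested with edgeR 4.0.16 in R 4.3.3 (TMM, filterByExpr, quasi-likelihood test, two-sided, threshold 0.05 on Benjamini-Hochberg adjusted p), without the gate genes. Library as a block and DESeq2 1.42.0 were alternatives, as were thinned cells, other gates, no doublet removal, no count filter and leaving out each library. The libraries are separate pools of animals, and 1 pool gives both sums of its library, which therefore pair: their distances to the class averages correlated over genes by 0.323 to 0.478 for Krt13-high against squamous basal, 0.379 to 0.642 for the basal classes, and 0.292 to 0.554 and 0.412 to 0.715 for the comparisons by Lrig1 in Krt13-high and squamous basal cells. Alternatives without upper limits, with at most 1 Krt13 UMI in basal cells, of Krt13 bins in other sets of cells, and of the block with these or with thinning were chosen after seeing the data. Scripts were tested on simulated data.

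The members and lists were chosen with earlier results of these data known. Every member is named, and of each list the 2 genes with the largest and the 2 with the smallest log2 fold change between Krt13-high and squamous basal cells; exceptions are stated. Likeness used log2(CPM + 1) of genes with at least 10 CPM in some bin of each library. Wilson intervals (95%) and floors of 3 UMIs cover counting error only. Sequence and positions came from GRCm39 with its gene annotation.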

Additional observations from a re-analysis of the deposited data

How the results depend on the processing

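Of the log2 fold changes of members under the alternatives, 366 kept their direction and side of the threshold, 46 passed it only in the alternative, 10 lost it and 15 changed sign; the cause of these changes was not tested. Beyond the changes already given, the block changed no member's call. For Krt13-high against squamous basal cells the count of genes called went from 3061 to 5435 with the replicate block and was 1041 to 1801 when a library was left out, where fewer samples enter. For the basal classes it went from 1668 to 4565 with the block, 1001 in cells thinned to 5000 UMIs and 765 with gates at double, and to 401 at the lowest and 1114 at the highest without a library. For Lrig1 in Krt13-high cells it went from 0 to 129 with the block, 78 with block and thinning, 159 with block and no upper limits and 104 with block and the lower Krt13 band, 1 with DESeq2 and 7 without the count filter. For Lrig1 in squamous basal cells it went from 0 to 1528 with the block, 720, 1404 and 403 with block and thinning, no upper limits or at most 1 Krt13 UMI, 98 with DESeq2, 6 without the filter and 1 with gates at 0.5 times.

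No value that changed sign was past the threshold. Ecm1 between the basal classes was at -0.10 with gates at double. For Lrig1 in Krt13-high cells, Krtdap was at 0.15 with the block and no upper limits, and Tgm3 ranged from -1.77 to 0.17 when a library was left out, the latter without library 1. For Lrig1 in squamous basal cells, Dapl1 was at -0.0078 with at most 1 Krt13 UMI and -0.0171 with the block added. Sprr1a was at 0.0221 with gates at double, 0.0154 without upper limits and 0.0566 with the block added. Ivl was at 0.14 with at most 1 Krt13 UMI (0.14 with the block), 0.0473 thinned (0.0359 with the block) and 0.0809 without upper limits (0.036 with the block), and from -0.20 to 0.38 when a library was left out, the latter without library 3. Shares of cells with a UMI move with depth, and thinning lowered them for most members. Levels below a few CPM rest on few UMIs, so Sprr3, Cnfn, Tgm3 and Ivl are the least precise.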
